A study of Mus musculus with 4 samples.

Results

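The mRNA decapping and 5′ decay factors were examined in mouse embryonic stem cells (ESCs) after depletion of CNOT1, the scaffold of the CCR4-NOT deadenylase. The set is 10 genes chosen by name for their part in the pathway, Dcp2, Dcp1a, Dcp1b, Edc3, Edc4, Ddx6, Patl1, Lsm1, Lsm14a and Xrn1, out of the 50559 genes listed. They were chosen with earlier results of these data known. The 10 were all found in the count table and all passed the filter on low counts. The cells are E14 ESCs per the labels, a pluripotent mouse line, and the study's methods describe ESCs that carry a tdTomato reporter driven by the MERVL promoter. They were grown on gelatin with leukemia inhibitory factor (LIF) and transfected with a non-targeting siRNA (siNT) or an siRNA against Cnot1 (siCnot1), each at 150 nM, and were collected after 48 h. Both groups therefore share the reporter, the medium and the transfection. Each group holds 2 libraries, replicates 1 and 2. Which of the study's Cnot1 siRNAs made these libraries is not stated in the sources used here, so the siCnot1 group cannot separate loss of CNOT1 from other effects of its siRNA.

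Cytoplasmic mRNA decay usually begins when deadenylases such as CCR4-NOT shorten the poly(A) tail. The tail-less mRNA is then bound by the LSM1 to LSM7 ring with PATL1, its cap is removed by the DCP2 enzyme with its activators, and the exonuclease XRN1 degrades the body from the 5′ end. The RNA helicase DDX6 binds CNOT1 directly and also binds the decapping activators, so it links both steps, and many of these proteins gather in cytoplasmic granules called P-bodies.

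The libraries held between 32135824 and 32557440 counts on genes, and 18144 genes were tested. Levels are given as normalized CPM (counts scaled to library size, after TMM scaling) and differences as log2 fold changes of siCnot1 over siNT. Adjusted p is that of the quasi-likelihood test in edgeR across all tested genes, called under 0.05. Cnot1, the targeted gene, had 913 and 986 normalized CPM in the siNT libraries and 185 and 192 in the siCnot1 libraries, a log2 fold change of -2.33 (SE 0.0587). All 8 ESC markers examined were detected, with summed levels of 6489 to 6822 normalized CPM in siNT and 5406 to 5650 in siCnot1, and 6 of the 8 were called lower. Of 8 markers of 2-cell-like cells, a rare state in ESC cultures, 7 were called higher, with sums of 65.9 to 67.4 in siNT and 176 to 180 in siCnot1. Fibroblast markers summed to 17.0 to 20.2 and 25.1 to 29.1 normalized CPM in the same order, with 2 of 4 tested called higher and Col3a1 and Dcn at 0 in every library. Primitive endoderm markers summed to 8.48 to 10.7 and 13.8 to 14.6 (1 of 5 tested called higher) and trophectoderm markers to 91.4 to 94.5 and 68.2 to 72.6 (2 of 5 tested called lower). Most of the trophectoderm sum was Tfap2c, at 57.9 and 58.6 normalized CPM in siNT and 42.5 and 40.9 in siCnot1. Cdx2 was scarce, at 0.128 to 0.598. The part of these shifts in the results on decapping genes was not tested, and in bulk RNA fewer cells of a type and less RNA per cell cannot be told apart.

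Transcripts for the decapping enzyme and several of its activators were lower in siCnot1 with TMM scaling, while those for DDX6, EDC4 and XRN1 were near the control level. These levels are relative to the other poly(A)+ RNA of each library, and amounts per cell were not measured. Of the 10 genes, 5 fell (Dcp2, Dcp1a, Patl1, Edc3 and Lsm14a), 0 rose and 5 did not pass the test. Across all tested genes 14.7% were called lower and 15% higher, and 20.2% were called lower among the 10711 genes whose mean level lay within the range spanned by the 10. That range ran from 4.91 (Dcp1b) to 420 normalized CPM, so the share was not matched to the levels of the genes that fell. The median log2 fold change of the 10 was -0.18, against 0.0084 over all tested genes. Since the 10 were chosen with earlier results known, these comparisons with other genes are descriptions. With TMM scaling, the siNT libraries both lay above both siCnot1 libraries for 6 of the 10 genes, the 5 that fell and Lsm1. That order was found in 31.2% of tested genes. The opposite order was found for 0 of the 10, and its share over all tested genes was not computed. With library totals in place of TMM, Lsm1 and Lsm14a overlapped between the groups. Both siCnot1 libraries of Ddx6 and of Edc4 then lay above both siNT libraries. None of the 10 passed the study's own thresholds (p of 0.05 or less with no adjustment, and a log2 fold change of 1 or more in size), which 7.98% of tested genes did. The changes were thus small, and how many were called depended on the scaling and on each library. When libraries were scaled by their totals in place of TMM, the median of the 10 moved to -0.077 and that of all tested genes to 0.12, the share of calls that were higher moved from 50.5% to 71.8%, and Dcp2 was the only gene of the 10 called. Dcp2 was likewise the only one called when any 1 of the 4 libraries was left out, where 871 to 1463 genes in all were called lower against 2668 with every library.

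The levels of the 10 genes spanned a wide range. To compare genes with each other, levels were divided by exon length (FPKM, counts divided by exon length in kilobases and by the library total). In siNT the order was Lsm14a (mean 52.9 FPKM ± 0.224, SD, n = 2), Ddx6 (48.1 ± 1.02), Edc4 (37.5 ± 1.49), Dcp2 (35.3 ± 1.54), Patl1 (17.2 ± 0.675), Edc3 (12.1 ± 0.111), Dcp1a (11.9 ± 0.598), Xrn1 (6.54 ± 0.591), Lsm1 (5.79 ± 0.698) and Dcp1b (1.12 ± 0.222), against a median of 3.24 FPKM for all tested genes. Edc3 and Dcp1a overlapped in their siNT values, as did Xrn1 and Lsm1, and the lower Edc4 library, at 36.5 FPKM, was next to the higher Dcp2 library, at 36.4 FPKM. In siCnot1, Ddx6 (52.2 ± 0.452 FPKM) and Lsm14a (51.0 ± 2.89) exchanged the first and second ranks with overlapping values, and the other 8 ranks were as in siNT. Dcp2 moved away from Edc4 in siCnot1, at 27.5 and 28.2 FPKM against 41.0 and 39.9.

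**Figure D1:**
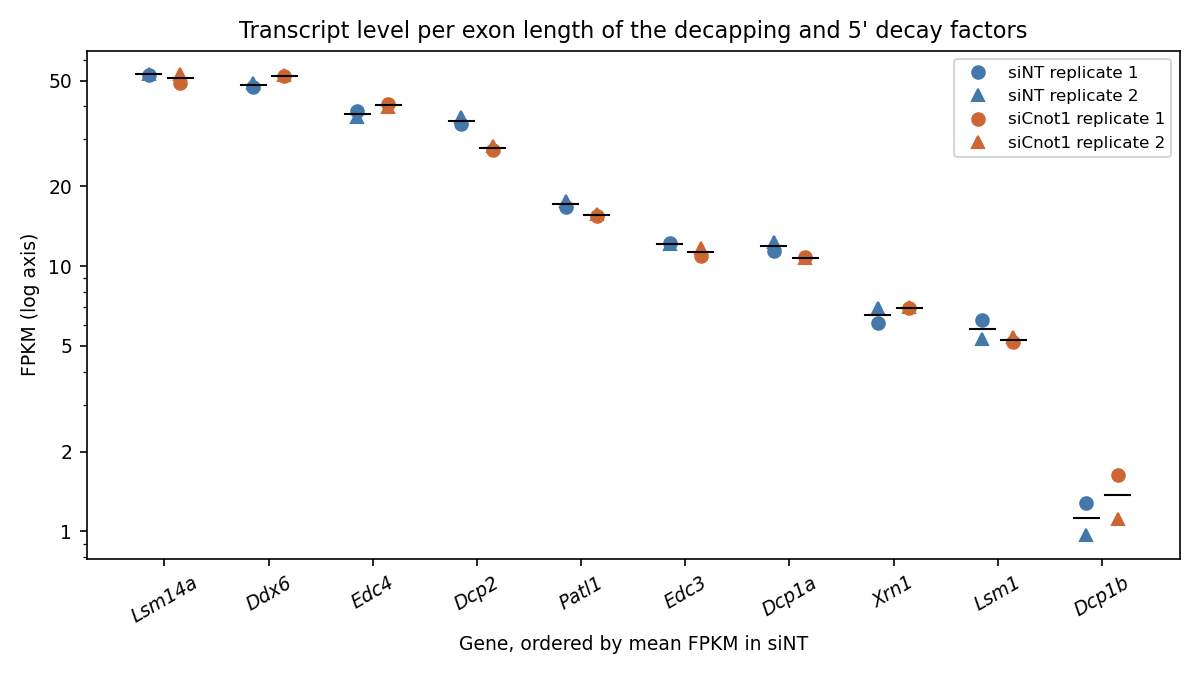
Level per exon length (FPKM from library totals, log axis) of the 10 genes in each library, ordered by the siNT mean, with blue for siNT, orange for siCnot1 and a black line at each group mean of 2 libraries. Lsm14a leads at a mean of 52.9 FPKM in siNT, Dcp1b is the lowest at 1.12, and Dcp2 drops from a mean of 35.3 to 27.9.

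DCP2 is the enzyme that hydrolyses the cap, and its transcript showed the largest change of the 10. Dcp2 (GRCm39 chromosome 18, 44513567 to 44558036, plus strand) had 307 and 326 normalized CPM in the siNT libraries and 228 and 237 in the siCnot1 libraries. Both siCnot1 libraries lay well below both siNT libraries, and the gap between groups was larger than the difference within either. The gene fell by 26.6% (95% interval of the siCnot1 level 67.6% to 79.7% of siNT), a log2 fold change of -0.45 (SE 0.0571, adjusted p = 2.71e-06). It was called in all 13 alternative fits, with log2 fold changes between -0.53 and -0.34.

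DCP1A and DCP1B are paralogous cofactors that bind DCP2 and help to activate it. Dcp1a (chromosome 14, 30201443 to 30249013, plus strand) had 67.7 and 72.7 normalized CPM in siNT and 59.0 and 59.3 in siCnot1. The groups did not overlap, and Dcp1a fell by 15.7%, a log2 fold change of -0.25 (SE 0.0744, adjusted p = 0.014). That call was kept in 7 of 13 alternative fits, and the log2 fold change was below 0 in each of the 13. Dcp1b (chromosome 6, 119152214 to 119198575, plus strand) was scarce, with 163 and 124 counts in siNT and 207 and 143 in siCnot1, or 5.24, 3.96, 6.18 and 4.27 normalized CPM. Its groups overlapped, and the log2 fold change of 0.19 (SE 0.221, adjusted p = 0.58) had a 95% interval from -0.27 to 0.64, so at this depth neither a fall like that of Dcp1a nor a rise could be told apart from no change. The sign of the Dcp1b value turned when siNT replicate 2 or siCnot1 replicate 1 was left out. Per exon length, Dcp1a made up 89.9% and 92.7% of the summed FPKM of the pair in the siNT libraries and 86.9% and 90.6% in the siCnot1 libraries. Dcp1a therefore supplied most of the pair in every library, and the ranges of this share overlapped between the groups.

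The 2 enhancers of decapping, EDC3 and EDC4, differed in their values. EDC3 is a scaffold that binds DCP2 and DDX6. Edc3 (chromosome 9, 57615823 to 57659782, plus strand) had 73.9 and 72.9 normalized CPM in siNT and 61.2 and 65.8 in siCnot1. Both siCnot1 libraries were below both siNT libraries, and Edc3 fell by 13.5%, a log2 fold change of -0.21 (SE 0.0727, adjusted p = 0.033). This call was kept in 5 of 13 alternative fits and was lost with the replicate number as a block (adjusted p = 0.057). An exon of Clk3, with 835 to 951 counts per library, overlaps Edc3 on the opposite strand, and whether the counting used strand is not stated in the sources used here.

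EDC4 is the large scaffold that joins DCP1 to DCP2 in animal cells. Edc4 (chromosome 8, 106607505 to 106619857, plus strand) had 193 and 182 normalized CPM in siNT and 189 and 186 in siCnot1. The siCnot1 libraries lay between the siNT libraries, and the log2 fold change of 0.0023 (SE 0.0580, adjusted p = 0.98) had a 95% interval from 92.2% to 109% of the siNT level. A change beyond about that width was not seen with TMM scaling, and the sign of so small a value turned under several alternatives. With library totals the log2 fold change of Edc4 was 0.11 and was not called. The TMM interval of Edc4 lay wholly above that of Dcp2, whose protein EDC4 binds.

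DDX6, the helicase that bridges CCR4-NOT and the decapping proteins, had the highest normalized CPM of the 10 genes. Ddx6 (chromosome 9, 44514113 to 44552028, plus strand) had 412 and 424 normalized CPM in siNT and 417 and 426 in siCnot1. The groups overlapped, and the log2 fold change was 0.01 (SE 0.0539, adjusted p = 0.9), with a 95% interval from 93.4% to 109% of the siNT level. With library totals the log2 fold change of Ddx6 was 0.12 and was not called.

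PATL1 is a scaffold that binds DDX6, DCP2 and the LSM ring, and LSM1 is the subunit that makes that ring cytoplasmic. Patl1 (chromosome 19, 11889728 to 11922462, plus strand) had 82.7 and 87.4 normalized CPM in siNT and 70.6 and 72.7 in siCnot1. These groups did not overlap, and Patl1 fell by 15.8%, a log2 fold change of -0.25 (SE 0.0691, adjusted p = 0.0085) that was called in 7 of 13 alternative fits. Its paralog Patl2 was near the bottom of the tested range, at 3.28 and 1.91 normalized CPM in siNT and 2.45 and 2.39 in siCnot1, with overlapping groups. Lsm1 (chromosome 8, 26275326 to 26294003, plus strand) had 29.3 and 24.7 normalized CPM in siNT and 22.3 and 23.4 in siCnot1. Both siNT libraries were above both siCnot1 libraries, but siNT replicate 1 stood apart from replicate 2 by more than the latter did from siCnot1. The log2 fold change of Lsm1 was -0.24 (SE 0.107, 95% interval -0.46 to -0.016) and did not pass the test (adjusted p = 0.1), and it was called only when a gene length offset was added.

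LSM14A binds DDX6 and is a core P-body protein. Lsm14a (chromosome 7, 34043569 to 34089134, minus strand) had 217 and 219 normalized CPM in siNT and 186 and 204 in siCnot1. Both siCnot1 libraries were lower, replicate 1 more than replicate 2, and Lsm14a fell by 10.4%, a log2 fold change of -0.16 (SE 0.0593, adjusted p = 0.046). That adjusted p lay just under the threshold, was 0.071 with the replicate block, and was under 0.05 in 5 of 13 alternative fits. Its paralog Lsm14b had 86.7 and 83.5 normalized CPM in siNT and 89.5 and 88.6 in siCnot1, a log2 fold change of 0.066 (SE 0.0659) that was not called. Per exon length, Lsm14a made up 69.1% and 70.0% of the pair in siNT and 65.0% and 67.3% in siCnot1, so the share was lower in both siCnot1 libraries.

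XRN1 is the cytoplasmic exonuclease that degrades decapped mRNA. Xrn1 (chromosome 9, 95836803 to 95939859, plus strand) had 84.0 and 95.5 normalized CPM in siNT and 87.7 and 89.7 in siCnot1. The siCnot1 libraries lay inside the siNT range, and the log2 fold change of -0.017 (SE 0.0705, adjusted p = 0.89) had a 95% interval from 89.3% to 109% of the siNT level. With upper-quartile scaling or library totals this value was above 0 and was not called. A non-coding gene on the opposite strand, Gm16794, overlaps an Xrn1 exon but held 29 to 92 counts per library, against 2614 to 3001 for Xrn1.

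**Figure D2:**
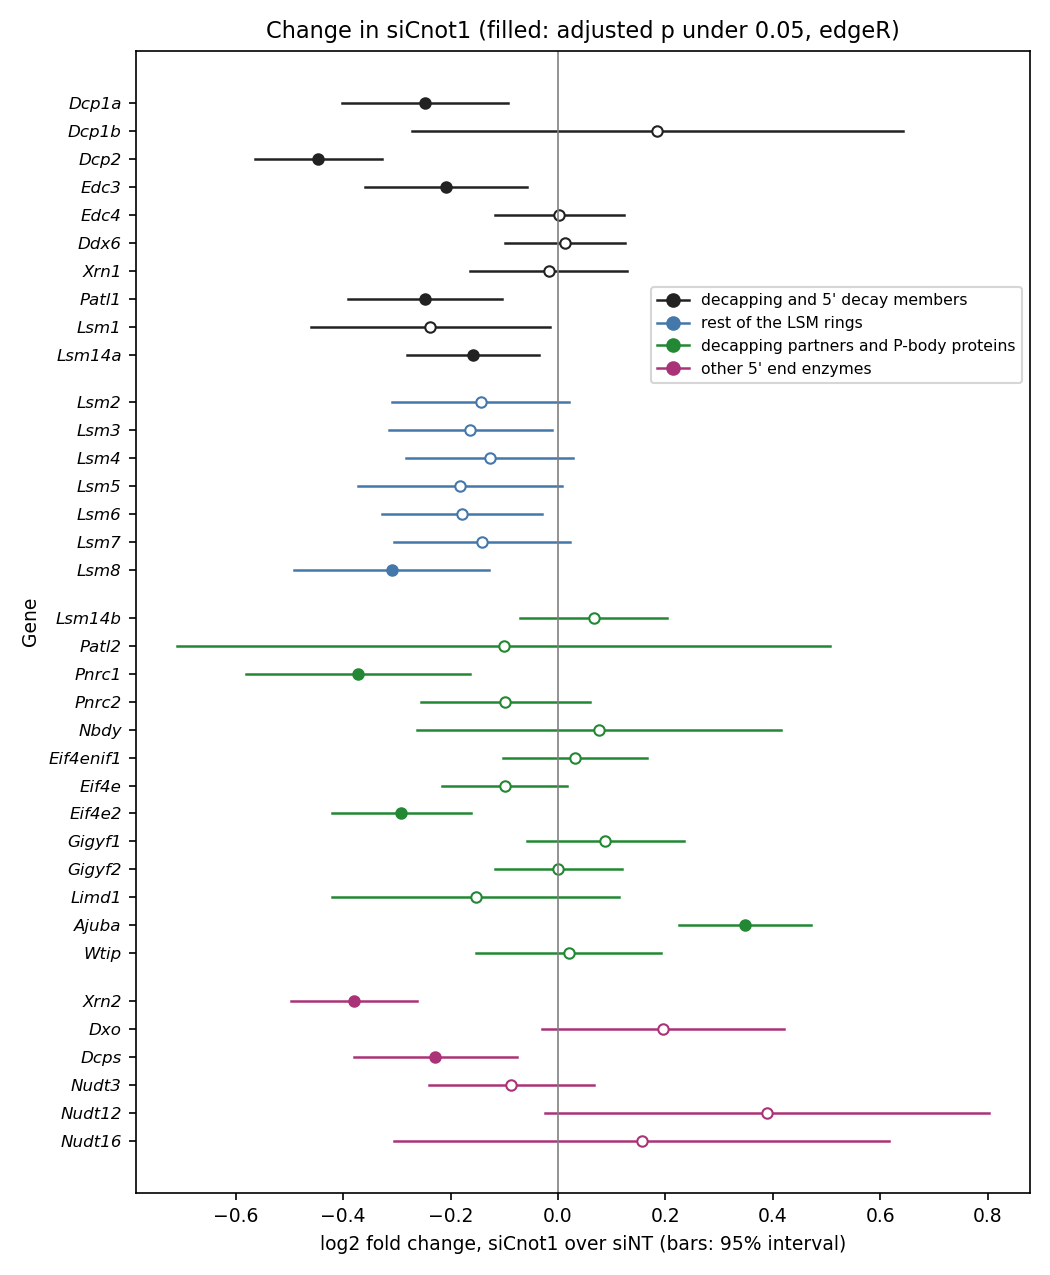
Log2 fold change of siCnot1 over siNT (horizontal axis, with 95% intervals from edgeR) for the 10 genes and 3 further lists of the pathway, filled where the adjusted p was under 0.05. Dcp2 at -0.45 stands lowest of the 10, Edc4, Ddx6 and Xrn1 sit at 0 within their intervals, and all 7 other LSM ring genes lie to the left of 0 (4 of the 7 with a gene length offset, which is not drawn).

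Ratios between genes within a library do not depend on how libraries are scaled, so they show which transcripts changed relative to each other. With 2 libraries against 2, the smallest exact two-sided permutation p is 0.333, so these ratios are descriptions. Per exon length, Dcp2 stood to Ddx6 at 0.721 and 0.745 in siNT and at 0.530 and 0.537 in siCnot1, 27.2% lower. To Edc4, the ratio of Dcp2 was 0.886 and 0.997 in siNT, against 0.671 and 0.707 in siCnot1. Against Xrn1, which acts on the product of decapping, Dcp2 stood at 5.58 and 5.22 in siNT and 3.97 and 4.03 in siCnot1. The siNT libraries were thus above the siCnot1 libraries in each of these ratios, and the gap was narrowest against the spread for Edc4. Dcp2 also decreased relative to genes that fell themselves, with a ratio to Dcp1a of 2.99 and 2.96 in siNT and 2.55 and 2.63 in siCnot1, and a ratio to Patl1 of 2.05 and 2.06 against 1.78 and 1.80.

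Relative to Ddx6, the ratio was 16.4% lower in siCnot1 for Dcp1a, 16.5% for Patl1, 15.6% for Lsm1, 14.3% for Edc3 and 11.3% for Lsm14a. The groups did not overlap for any of these 5, and the share of all tested genes with such a ratio was not computed. Ddx6 had a log2 fold change of 0.01 with TMM scaling, so these ratios follow the TMM values of the same genes. For Edc4 and Xrn1 the ratio to Ddx6 was 0.663% and 1.83% lower, with overlapping groups. In these libraries, Dcp2, Dcp1a, Patl1, Lsm1, Edc3 and Lsm14a thus stood lower relative to Ddx6 in siCnot1, whichever scaling is used. Dcp1b was not set against Ddx6.

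**Figure D3:**
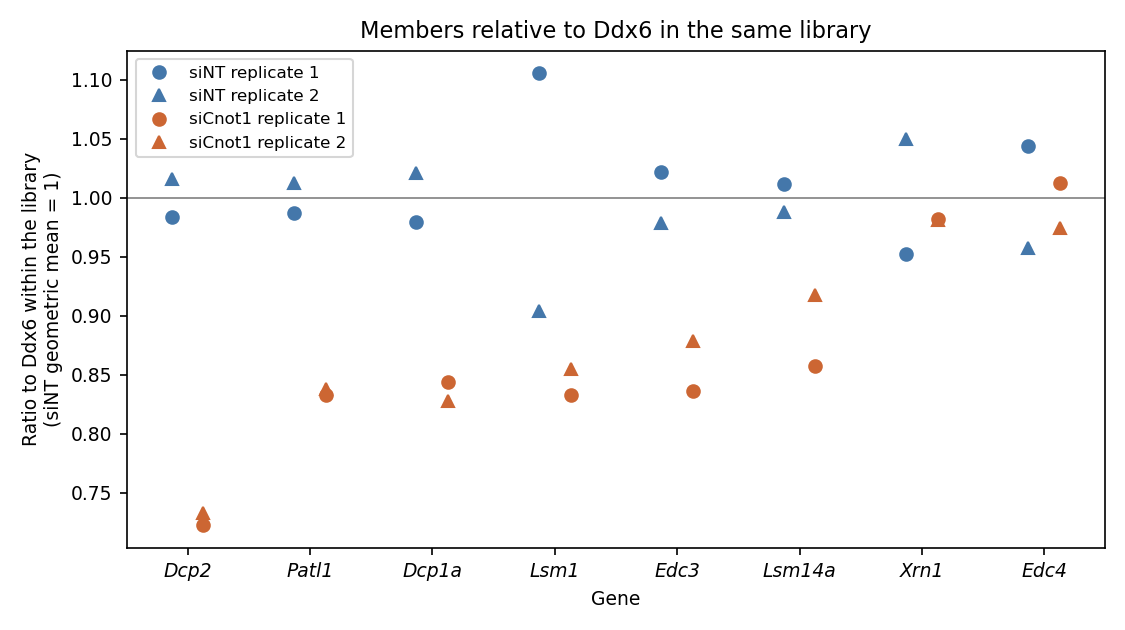
Ratio of each gene's level per exon length to that of Ddx6 in the same library (vertical axis, set to a geometric mean of 1 in siNT), with blue for siNT and orange for siCnot1 and Dcp1b left out for its low counts. Both siCnot1 libraries of Dcp2 lie near the bottom, those of Patl1, Dcp1a, Lsm1, Edc3 and Lsm14a lie in between, and those of Xrn1 and Edc4 lie within the siNT range.

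Other genes of the pathway were taken from 3 lists. LSM1 shares its ring partners LSM2 to LSM7 with the nuclear LSM2 to LSM8 ring, which binds U6 RNA, so the 7 genes Lsm2 to Lsm8 cover both. All 7 had log2 fold changes below 0 (median -0.16, range -0.31 to -0.13), as they did under every scaling, but only 4 of the 7 with the gene length offset. Of these genes 1 was called lower and 0 higher, beside 14.7% and 15% of all tested genes. The called gene was Lsm8, the subunit particular to the nuclear ring, at 44.4 and 43.2 normalized CPM in siNT and 35.0 and 35.6 in siCnot1, a log2 fold change of -0.31 (SE 0.0879, adjusted p = 0.0096). That call was kept in 7 of 13 alternative fits, and with the gene length offset the value was -0.16 (adjusted p = 0.18 in edgeR) and another of the 7 was the 1 called lower. With TMM scaling, the siNT libraries lay above the siCnot1 libraries for 6 of the 7, an order held by 31.2% of tested genes. The FPKM ratio of Lsm1 to Lsm8 overlapped between the groups. With library totals the median of the 7 was -0.056 and 0 were called lower.

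Among 13 partners of decapping and P-body proteins, 1 rose, 2 fell and 10 did not pass the test, which is near the 15% called higher and 14.7% called lower over all tested genes. Their median log2 fold change was 0.0003, but 0.11 with library totals and -0.069 without siCnot1 replicate 2. Ajuba, a LIM-domain protein found in P-bodies, had 171 and 164 normalized CPM in siNT and 206 and 221 in siCnot1 and rose, with a log2 fold change of 0.35 (SE 0.0594, adjusted p = 9.64e-05). Its groups were well separated, and it was called in all 13 alternative fits. Eif4e2, which encodes the cap-binding repressor 4EHP, fell from 251 and 242 to 188 and 214 normalized CPM (log2 fold change -0.29, SE 0.0624). Pnrc1, whose protein binds the decapping complex, fell from 34.7 and 31.1 to 24.2 and 26.7 normalized CPM (log2 fold change -0.37, SE 0.101). Both were called in 9 of 13 alternative fits.

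Of 6 other enzymes that act on mRNA 5′ ends, 2 fell, 0 rose and 4 did not pass the test, beside 14.7% called lower and 15% called higher over all tested genes. The median log2 fold change of the 6 was 0.034, but 0.14 with library totals, 0.067 without siCnot1 replicate 1 and -0.088 without siCnot1 replicate 2. Xrn2, the nuclear counterpart of Xrn1, had 254 and 266 normalized CPM in siNT and 201 and 199 in siCnot1, a log2 fold change of -0.38 (SE 0.0566, adjusted p = 1.93e-05) that was called in all 13 alternative fits. The FPKM ratio of Xrn1 to Xrn2 was 0.28 and 0.30 in siNT, against 0.37 and 0.38 in siCnot1, 28.7% higher. The level of Xrn2 thus came closer to that of the scarcer Xrn1. Dcps, the scavenger enzyme that hydrolyses the cap left after 3′ to 5′ decay, fell from 70.6 and 70.2 to 61.5 and 58.6 normalized CPM (log2 fold change -0.23, SE 0.0733, adjusted p = 0.02). That call was kept in 6 of 13 alternative fits.

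The 3′ untranslated regions (UTRs) of the 10 genes were searched for the Pumilio element, TGTANATA, since Pumilio proteins are known to recruit CCR4-NOT to mRNAs that carry it. It was searched on the mRNA strand in the longest 3′ UTR of each gene in the GENCODE M21 annotation. Which UTR the cells used was not measured. The element was present in 7 of the 10 genes, namely Dcp1a (2 matches), Ddx6 (2), Dcp2, Edc3, Patl1, Lsm1 and Lsm14a (1 each), and was not found in Dcp1b, Edc4 or Xrn1. All 6 genes whose siNT libraries lay above the siCnot1 libraries with TMM scaling held it, as did Ddx6, which overlapped between the groups. The element was chosen with earlier results of these data known, so this is a description only. Of 13953 tested genes with a 3′ UTR, 25.4% held it, and their median log2 fold change was 0.028, against 0.018 for genes without it. Long UTRs hold it more often: among genes with a UTR of like length (80% to 120%), the share was 49.7% for Dcp1a, 72.5% for Dcp2, 51.1% for Edc3, 51.8% for Ddx6, 30.5% for Patl1, 31.5% for Lsm1 and 25.6% for Lsm14a. For the genes without a match it was 57.5% for Xrn1, 28.3% for Dcp1b and 8.60% for Edc4. The matches are descriptions of sequence, and binding was not measured. Whether the element bears on the changes was not tested. To show how they differ in their centre and flanks, they are given from the mouse genome GRCm38, a different build from the gene positions above, for Ddx6, Lsm1 and the genes that fell other than Dcp2, whose site is not shown, with the element in capitals and 10 bases on each side.
Dcp1a site 1 (chr14:30524873-30524900, plus strand): catgatagtgTGTAAATAtagcaaccaa
Dcp1a site 2 (chr14:30525247-30525274, plus strand): gcttcctcagTGTAGATAcaaacttctg
Edc3 (chr9:57750216-57750243, plus strand): tcactgggtaTGTACATAgagacatggt
Patl1 (chr19:11944931-11944958, plus strand): tatagggtatTGTAAATAaaacaaattg
Lsm1 (chr8:25802492-25802519, plus strand): ttcatttactTGTAAATAaaaaatgatt
Lsm14a (chr7:34344987-34345014, minus strand): agtgtatgaaTGTAAATAatcatagatg
Ddx6 site 1 (chr9:44637154-44637181, plus strand): ccatccacacTGTACATAcatgtattta
Ddx6 site 2 (chr9:44637435-44637462, plus strand): gtataaacttTGTAAATAagtttttttt

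Other short elements that are known to bring CCR4-NOT to mRNAs were less common among the 10. The AU-rich element TATTTAT was present in 5 of the 10, Dcp2 (2 matches), Dcp1a, Dcp1b, Edc3 and Xrn1 (1 each), and in 29.4% of tested genes with a UTR. Among genes of like UTR length the share ranged from 7.49% for Edc4 to 75.0% for Dcp2, and it was 57.6% for Dcp1a, 58.8% for Edc3 and 63.2% for Xrn1, so matches in these long UTRs are common. The site for the seed of miR-294, an abundant microRNA of mouse ESCs, was present in 2 of the 10, Dcp2 and Dcp1b, and in 16.8% of tested genes with a UTR. Among genes of like UTR length the share ranged from 3.79% for Edc4 to 60.4% for Dcp2, and was 17.0% for Dcp1b. It was 36.2% for Dcp1a, 37.1% for Edc3, 40.3% for Ddx6 and 48.8% for Xrn1, which held no site. The mature miR-294-3p sequence from RefSeq is shown with its seed (bases 2 to 8) in capitals, and the site AGCACTT in the Dcp1b UTR is shown in capitals beneath it for comparison.
miR-294-3p: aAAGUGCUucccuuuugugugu
Dcp1b (GRCm38 chr6:119221488-119221514, plus strand): ttcaatccctAGCACTTaaaaaaagaa

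The UTR of Dcp2 held 5 such miR-294 seed sites in 7240 bases, where 60.4% of genes of like UTR length held at least 1. The share of those genes with as many as 5 was not computed. Dcp2 had the longest annotated UTR of the 10. No longer UTR was found in 98.9% of the 13953 tested genes with a 3′ UTR. The next were Xrn1 at 4994 bases, Ddx6 at 4250, Edc3 at 4004 and Dcp1a at 3757, followed by Lsm1 at 1877, Patl1 at 1739, Dcp1b at 1536, Lsm14a at 1346 and Edc4 at 363. Whether UTR length bears on the changes was not tested.

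**Figure D4:**
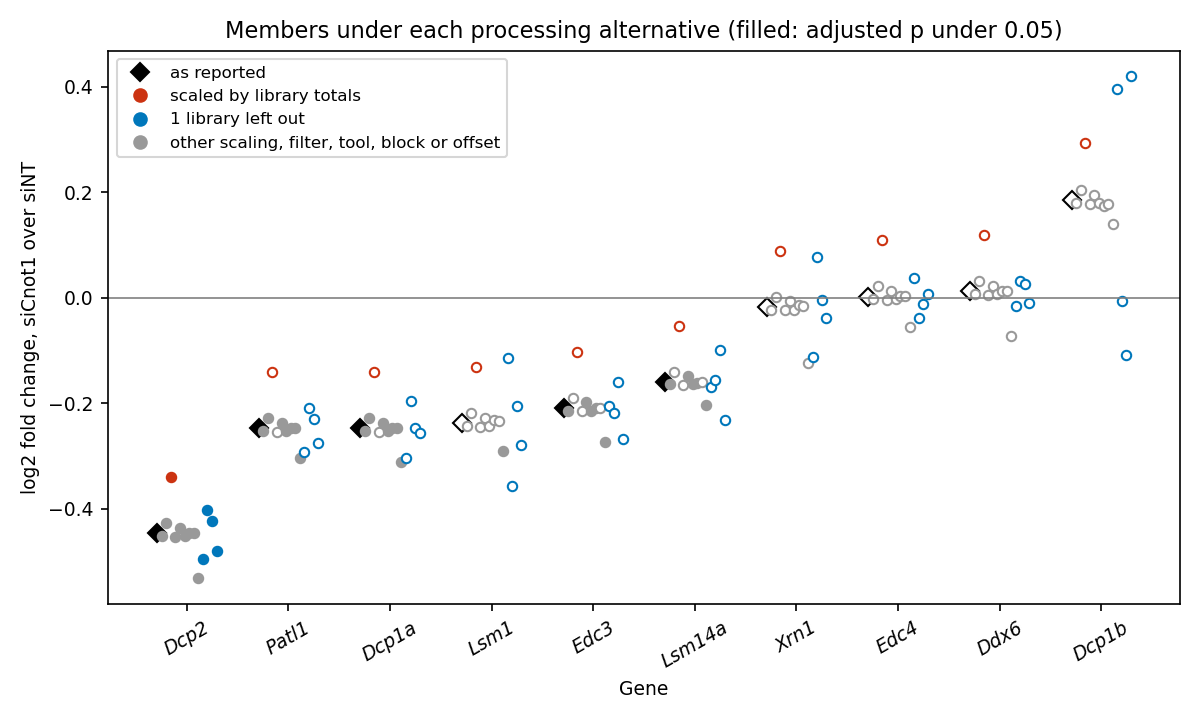
Log2 fold change of siCnot1 over siNT for each of the 10 genes as reported (black diamonds) and under each of 13 alternatives (circles), filled where the adjusted p was under 0.05. Dcp2 is filled throughout, while Patl1, Dcp1a, Edc3 and Lsm14a stay below 0 but lose the call with library totals (red) and with any library left out (blue), and the values of Xrn1, Edc4, Ddx6 and Dcp1b fall on both sides of 0.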

How the data were processed

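The authors deposited raw counts of reads per gene from poly(A)+ dUTP libraries, without normalization or pooling, with an exon length for each gene. The submitters' processing notes list fastp 0.19.4, HISAT2 2.2.1, DESeq2 1.40.2 and mm10. The counting program is not given in the sources used here, the table has the layout of featureCounts, and its gene positions are those of GRCm39. Both groups were labelled with replicate numbers 1 and 2, and the study's methods describe independent biological replicates.

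From these deposited counts, 18144 genes passed filterByExpr (minimum count 10) in edgeR 4.0.16 (R 4.3.3) and were compared with TMM scaling, glmQLFit and glmQLFTest, condition as the only term and Benjamini-Hochberg adjustment over all tested genes. SE was taken as the size of the log2 fold change over the root of its F statistic. A count of 3 was worth 0.0921 to 0.0934 CPM per library, a floor for counting error only. FPKM was computed from counts, the exon lengths and library totals. The fits were run on simulated counts with known changes, raised and lowered in equal number. That simulation held no shift like that between TMM and library totals, so it does not bear on the choice of scaling. The 10 genes, the lists and the motifs were chosen with earlier results of these data known. All 10 were named, with Cnot1, paralogs, and at most 4 called genes of each list. Of 7 fibroblast, 6 primitive endoderm and 6 trophectoderm markers, 4, 5 and 5 had enough counts.

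Alternatives were other scalings (DESeq2 size factors, upper quartile, library totals), no filter, a filter of 1 CPM in 2 libraries, limma-voom (limma 3.58.1), DESeq2 1.42.0, the replicate number as a block, a gene length offset, and each library left out in turn. Motifs were searched in the longest GENCODE M21 UTR of each gene, joined by gene name, and no GRCm38 position was set against a deposited one.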

Additional observations from a re-analysis of the deposited data

How the results depend on the processing

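Dcp2, Ajuba, Xrn2 and Cnot1 kept their direction and their call in all 13 alternatives. Of the 10 decapping genes, 5 were called lower as reported. The count was 3 with upper-quartile scaling, 1 with library totals, 1 with no filter on low counts and 1 (Dcp2) with any library left out, where the lone library is assumed to vary like the other group. Causes were not tested. Over all genes, 2719 were called higher and 2668 lower. Library totals gave 3989 and 1567, no filter 1303 and 1450, and leaving out a library 743 to 1439 higher and 871 to 1463 lower. At the study's thresholds 1121 genes were higher and 326 lower, and 729 and 186 with a filter of 1 CPM.

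Same-numbered libraries did not deviate together (correlation of deviations -0.0057 across genes), so the numbers were not taken to pair the samples. With the replicate block, 3 of the 10 genes were called lower (Dcp2, Dcp1a and Patl1), and 2524 genes were called higher and 2431 lower.

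In the further lists, LSM ring genes called lower were 0 with library totals and 0 with any library left out. Partners called higher were 3 with library totals. Partners called lower were 0 with no filter and 0 to 2 with a library left out (2 only without siCnot1 replicate 2). With library totals 1 of the other 5′ end enzymes was called higher and 1 lower, and 1 was called lower with no filter, with the length offset and with any library left out.

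Signs turned only for genes that were not called. Dcp1b had a log2 fold change of -0.0051 without siNT replicate 2 and -0.11 without siCnot1 replicate 1 (range with a library left out -0.11 to 0.42). Edc4 had -0.0029 with DESeq2 size factors and -0.0029 in DESeq2, -0.0043 with no filter, -0.055 with the length offset, -0.039 without siNT replicate 2 and -0.013 without siCnot1 replicate 1 (range -0.039 to 0.038). Ddx6 had -0.071 with the length offset, -0.015 without siNT replicate 1 and -0.01 without siCnot1 replicate 2 (range -0.015 to 0.033). Xrn1 had 0.0022 with upper-quartile scaling, 0.0895 with library totals and 0.077 without siNT replicate 2 (range -0.11 to 0.077).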
